A study of Mus musculus with 9 samples.

Results

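The data described here are the levels of 38 genes best known from endothelial cells, read in sorted blood stem cells. They were found by symbol among the 22322 genes of the deposited expression table, and all 38 were present. The genes were chosen by their endothelial role and with their levels in Cxcl10-/- and wild-type (WT) cells already known, so values and calls in that contrast, and in Cxcr3-/- against Cxcl10-/-, which shares the Cxcl10-/- libraries, are a description of the genes and no evidence about the list. By their WT level the genes fell into 17 that averaged under 1 FPKM in WT cells, called near 0, and 20 that averaged at least 1 FPKM in each of the 3 genotypes. Sparc belonged to neither class. FPKM counts sequenced fragments relative to transcript length and library size, so levels can be set side by side between genes.

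Each library came from the long-term haematopoietic stem cells (LT-HSCs) of 1 mouse, the rare marrow cells from which all blood lineages can be rebuilt. The donors were 3 Cxcl10-/- mice, 3 Cxcr3-/- mice and 3 WT mice, all C57BL/6 and 6 to 8 weeks old. Cxcl10 encodes a secreted chemokine and Cxcr3 encodes its receptor. The cells were sorted from bone marrow as lacking lineage markers, CD48 and CD135 and bearing Sca-1, c-Kit and CD150, and 500 to 800 of them made 1 library after whole-transcriptome amplification of polyadenylated RNA. The replicates are separate mice per the design text, here called mouse 1 to 3 by their label numbers. Which cells of the mutant mice carried the deletions, and on which day each library was made, is not given in the sources used here.

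Endothelial cells form the inner lining of blood and lymph vessels. They hold together through junction proteins such as VE-cadherin and claudin-5, respond to VEGF and angiopoietins through receptor kinases, and take their identity from ETS and SOX transcription factors. Blood stem cells arise in the embryo from a specialised endothelium, and adult stem cells keep several of these proteins on their surface, so an endothelial gene is not by itself foreign to a stem cell. In the marrow, sinusoidal endothelial cells are a part of the niche in which stem cells reside.

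The libraries held 12098498 to 17904629 estimated counts each. Cxcl10 was at 0 counts in all Cxcl10-/- libraries, against 112 to 553 counts in Cxcr3-/- and 3 to 84 in WT libraries. Cxcr3 had 0 counts in 8 of the 9 libraries and 8 counts in WT mouse 3, so it could not serve as a check of the Cxcr3-/- label. The 20 listed LT-HSC identity genes were expressed in all 3 genotypes, with summed levels of 1150 to 1326 FPKM in Cxcl10-/-, 1244 to 1310 in Cxcr3-/- and 1217 to 1352 in WT libraries. Of these, Kit and Angpt1 fell in Cxcl10-/- cells relative to WT, by 0.75 ± 0.17 and by 0.55 ± 0.12 on the log2 scale (edgeR, SE). Slamf1, which encodes the sorted marker CD150, had 0.69, 0.71 and 4.12 FPKM in Cxcl10-/- libraries, against 5.65 to 9.24 in Cxcr3-/- and 5.23 to 7.40 in WT libraries. The libraries of the Cxcl10-/- mice also stood apart in other measures. Mitochondrial genes took 3.57% to 4.13% of counts in Cxcl10-/-, 10.2% to 11.2% in Cxcr3-/- and 12.6% to 13.1% in WT libraries. Genes above 0 numbered 12555 to 13895 in Cxcl10-/-, 14606 to 18344 in Cxcr3-/- and 14498 to 16010 in WT libraries. The part of these differences in the values that follow was not tested.

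Of the 17 genes near 0 in WT stem cells, 13 were higher in every Cxcl10-/- library than in any WT library. The share was 1.88% over all genes averaging under 1 FPKM in WT. Because the 17 were listed with this contrast known, nothing is read from the count. Cav1, Mcam, Esm1 and Nos3 overlapped. Summed over the 17 genes, the level was 76.9, 141 and 102 FPKM in Cxcl10-/-, 11.3, 1.86 and 10.3 FPKM in Cxcr3-/-, and 2.57, 5.47 and 6.54 FPKM in WT mice 1 to 3. The lowest Cxcl10-/- library therefore lay above all 6 others. Rarres2 alone gave 17.8, 76.6 and 52.5 FPKM of the Cxcl10-/- sums. The other 16 genes summed to 59.2, 64.8 and 49.3 FPKM in Cxcl10-/-, 9.58, 1.86 and 10.3 FPKM in Cxcr3-/- and 2.57, 4.65 and 6.54 FPKM in WT mice. Of the 17 genes, 12, 14 and 12 reached 1 FPKM in the Cxcl10-/- libraries, against 3, 0 and 2 in the Cxcr3-/- and 0, 1 and 2 in the WT libraries. In bulk libraries such as these, more cells of a type and more RNA per cell cannot be told apart.

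The 20 genes expressed in all genotypes summed to 832, 963 and 916 FPKM in Cxcl10-/-, 569, 602 and 621 FPKM in Cxcr3-/-, and 673, 619 and 707 FPKM in WT mice. Gng11, a G protein gamma subunit, alone gave 318 to 444 FPKM of that sum in Cxcl10-/-, 187 to 230 in Cxcr3-/- and 265 to 295 in WT libraries. In WT cells Gng11 led the order of levels with a mean of 277 FPKM, and Adgrl4 followed with 180 FPKM. Egfl7, Emcn and Tfpi came next at 47.5, 43.6 and 35.7 FPKM, and their WT libraries overlapped. Below them stood Cav2 (16.3 FPKM), Cavin1 (11.2 FPKM) and Ecscr (10.3 FPKM), where Cav2 lay just above the others and Cavin1 and Ecscr overlapped. The other 12 genes of the class averaged 1.49 to 6.88 FPKM in WT cells and overlapped with their neighbours.

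At the 1 FPKM border the split separated genes with similar WT levels. Kdr (0.983 FPKM) and Clec14a (0.823 FPKM) were the last genes inside the near-0 class, and Cyyr1 (1.49 FPKM) and Sparc (1.56 FPKM) the first outside it. Sparc met the WT level but averaged only 0.793 FPKM in Cxcr3-/- cells.

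**Figure D1:**
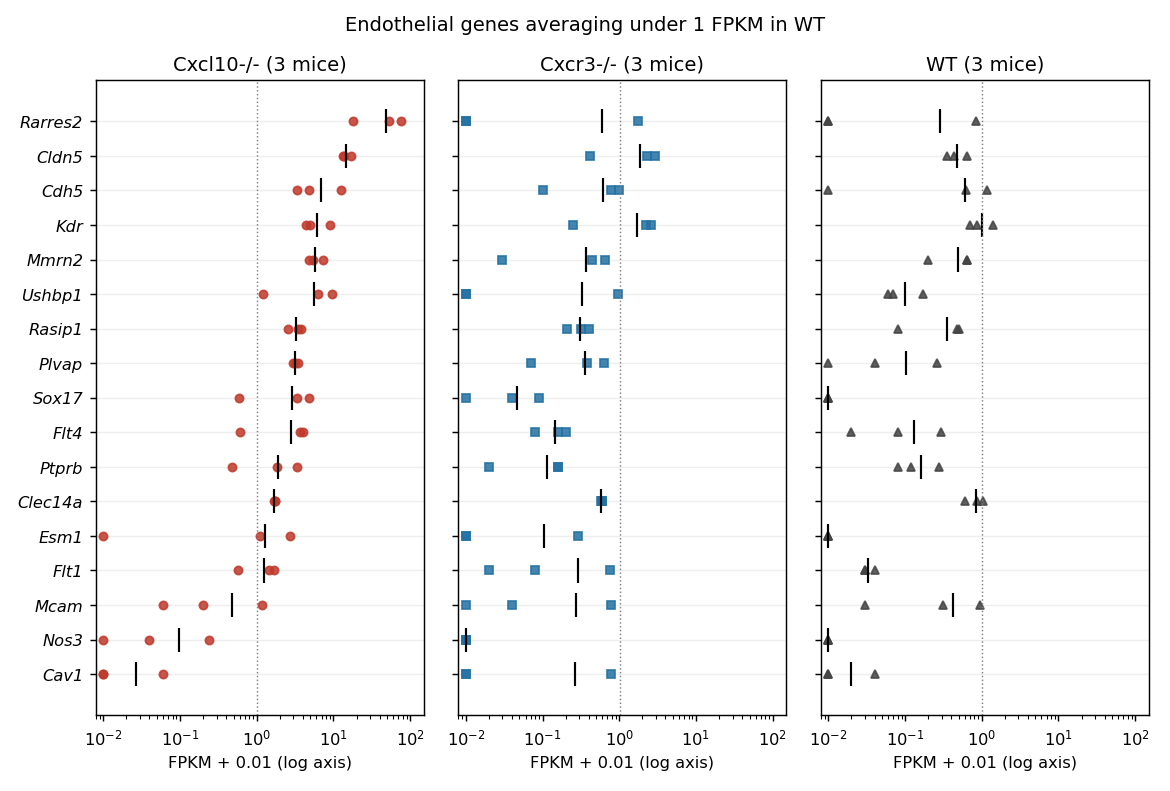
Levels of the 17 endothelial genes averaging under 1 FPKM in WT, on a log axis of FPKM + 0.01, with Cxcl10-/- on the left, Cxcr3-/- in the middle and WT on the right. Each point is 1 mouse, each black bar the mean of 3 mice, and the dotted line marks 1 FPKM. In the Cxcl10-/- panel most points lie right of the line, with Rarres2 at 17.8 to 76.6 FPKM, while Cav1, Nos3 and Mcam stay near it or below.

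Promoter sequences of 4 genes are shown as examples from the classes, which were set by mean level alone. Of the 38 genes, 24 had a promoter entry in RefSeq (GRCm38.p6, 250 bases before to 50 after the start of the gene). Cldn5 and Ushbp1 stand for the near-0 class, and Adgrl4 and Tie1 for genes expressed in all genotypes that were lower and higher in Cxcl10-/- cells. The windows were Cldn5 at chr16:18776597-18776896 on the plus strand, Ushbp1 at chr8:71395752-71396051 on the minus strand, Adgrl4 at chr3:151437632-151437931 on the plus strand and Tie1 at chr4:118489800-118490099 on the minus strand. Capitals mark AGGAAG or its reverse complement, letters that ETS factors can bind.
Cldn5: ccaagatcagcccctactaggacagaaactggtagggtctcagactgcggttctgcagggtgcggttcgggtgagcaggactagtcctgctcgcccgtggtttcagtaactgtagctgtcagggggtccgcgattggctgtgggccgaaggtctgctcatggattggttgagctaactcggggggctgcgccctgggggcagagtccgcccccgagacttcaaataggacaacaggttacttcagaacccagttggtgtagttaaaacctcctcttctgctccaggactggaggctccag
Ushbp1: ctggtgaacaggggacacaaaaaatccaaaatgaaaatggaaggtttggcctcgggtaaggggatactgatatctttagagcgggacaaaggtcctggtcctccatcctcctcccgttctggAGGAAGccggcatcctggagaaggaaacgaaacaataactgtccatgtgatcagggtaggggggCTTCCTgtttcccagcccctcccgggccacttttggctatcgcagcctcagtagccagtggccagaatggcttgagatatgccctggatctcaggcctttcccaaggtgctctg
Adgrl4: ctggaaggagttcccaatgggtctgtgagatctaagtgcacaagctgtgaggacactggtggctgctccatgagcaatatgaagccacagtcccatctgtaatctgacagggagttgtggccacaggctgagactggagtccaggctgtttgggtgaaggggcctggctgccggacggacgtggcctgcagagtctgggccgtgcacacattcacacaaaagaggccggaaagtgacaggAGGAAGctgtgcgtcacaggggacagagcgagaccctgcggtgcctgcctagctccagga
Tie1: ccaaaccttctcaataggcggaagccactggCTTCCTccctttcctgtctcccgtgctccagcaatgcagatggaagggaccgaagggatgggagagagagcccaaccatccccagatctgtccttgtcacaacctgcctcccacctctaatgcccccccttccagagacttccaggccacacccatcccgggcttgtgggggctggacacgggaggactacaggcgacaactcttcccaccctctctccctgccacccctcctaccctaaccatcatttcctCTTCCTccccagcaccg
The Cldn5 window had 0 such matches, the Ushbp1 window 2, the Adgrl4 window 1 and the Tie1 window 2. AGGAAG on either strand was found for 13 of the 24 genes, 4 of 10 near 0 and 9 of 13 expressed in all genotypes, against 38.4% of the 27025 genes with a promoter entry. AACAAT, letters that SOX factors can bind, was found on either strand for 3 of the 24 genes and for 12.2% of all genes. AGATAA, for GATA factors, was found on either strand for 1 of the 24 and for 12.7% of all genes. No match of 1 motif overlapped a match of another in these windows. A match describes letters only and is not a site shown to be bound.

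Among the adhesion and junction genes, Cldn5 and Cdh5 were near 0 in WT cells, and Vcam1, Pecam1, Emcn and Podxl were expressed in all genotypes. Cldn5, the claudin that seals endothelial tight junctions, had 13.8, 16.8 and 13.4 FPKM in Cxcl10-/- mice, against 2.32, 0.40 and 2.92 FPKM in Cxcr3-/- and 0.34, 0.42 and 0.63 FPKM in WT mice. All Cxcl10-/- libraries lay above all others, and the fitted log2 difference, Cxcl10-/- minus WT, was 4.87 ± 0.85 (edgeR, SE). Cdh5, which encodes VE-cadherin of the adherens junction, had 12.4, 4.73 and 3.38 FPKM in Cxcl10-/-, against 0.98, 0.09 and 0.77 FPKM in Cxcr3-/- and 0, 0.61 and 1.15 FPKM in WT mice. Its Cxcl10-/- libraries did not overlap with the others, with mouse 1 highest, and the log2 difference from WT was 3.46 ± 1.22. Vcam1, an adhesion molecule of activated endothelium and of marrow macrophages and stroma, had 19.8, 35.9 and 23.2 FPKM in Cxcl10-/-, against 5.70, 1.54 and 2.14 FPKM in Cxcr3-/- and 0.69, 1.63 and 3.77 FPKM in WT mice. Here too the Cxcl10-/- libraries were apart, at a log2 difference of 3.74 ± 0.64 from WT. Pecam1, Emcn and Podxl overlapped between Cxcl10-/- and WT libraries. Pecam1 (CD31) spanned 2.65 to 11.1 FPKM in Cxcl10-/-, 4.35 to 7.82 in Cxcr3-/- and 3.23 to 9.90 in WT mice, with full overlap. Emcn, the sialomucin endomucin also found on stem cells, spanned 39.4 to 49.1 FPKM in Cxcl10-/-, 17.3 to 32.9 in Cxcr3-/- and 34.0 to 49.1 in WT mice. Its Cxcr3-/- libraries were the low ones. Podxl, the sialomucin podocalyxin, spanned 0.12 to 2.38 FPKM in Cxcl10-/-, 0.68 to 1.48 in Cxcr3-/- and 1.44 to 2.49 in WT mice, with overlap. Mcam (CD146) did not pass 1.17 FPKM in any library and was not tested.

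The receptors of the VEGF and angiopoietin families were split between the classes. Flt4, the VEGF-C receptor of lymphatic and sinusoidal endothelium, had 0.59, 3.69 and 3.97 FPKM in Cxcl10-/-, against 0.19, 0.15 and 0.07 FPKM in Cxcr3-/- and 0.01, 0.28 and 0.07 FPKM in WT mice. The Cxcl10-/- libraries lay above the rest, mouse 1 only narrowly, and the log2 difference from WT was 4.42 ± 1.16. Kdr, the main signalling VEGF receptor, had 4.32, 4.87 and 8.98 FPKM in Cxcl10-/-, against 2.25, 0.24 and 2.55 FPKM in Cxcr3-/- and 0.85, 0.70 and 1.40 FPKM in WT mice. All Cxcl10-/- values were above the others, with mouse 3 highest, at a log2 difference of 2.55 ± 0.72 from WT. Flt1, the VEGF receptor that also acts as a decoy, reached 0.56 to 1.68 FPKM in Cxcl10-/-, 0.01 to 0.75 in Cxcr3-/- and 0.02 to 0.03 in WT mice, and averaged under 1 FPKM over the 9 libraries. Tie1, an orphan kinase that partners the angiopoietin receptor, had 10.7, 9.93 and 8.73 FPKM in Cxcl10-/-, against 6.68, 6.10 and 4.84 FPKM in Cxcr3-/- and 3.97, 4.84 and 3.54 FPKM in WT mice. It was present in every library and highest in the Cxcl10-/- ones, at a log2 difference of 1.17 ± 0.31 from WT. Ptprb, the phosphatase VE-PTP that restrains these kinases, was at 0.47 to 3.30 FPKM in Cxcl10-/-, 0.01 to 0.15 in Cxcr3-/- and 0.07 to 0.27 in WT mice.

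Other surface receptors and their partners were also split between the classes. Ramp2, the partner that makes the calcitonin receptor-like receptor bind adrenomedullin, had 27.0, 18.8 and 6.75 FPKM in Cxcl10-/-, against 1.39, 1.78 and 1.97 FPKM in Cxcr3-/- and 2.33, 3.37 and 2.97 FPKM in WT mice. The 3 genotypes did not overlap, with Cxcr3-/- lowest, and the log2 difference of Cxcl10-/- from WT was 2.49 ± 0.73. Mmrn2, an extracellular ligand of Clec14a, had 4.79, 7.28 and 5.35 FPKM in Cxcl10-/-, against 0.43, 0.02 and 0.64 FPKM in Cxcr3-/- and 0.19, 0.63 and 0.63 FPKM in WT mice. Its Cxcl10-/- libraries stood well apart, at a log2 difference of 3.50 ± 0.97 from WT. Clec14a itself, an endothelial lectin-like receptor, was nearly constant within the mutants, with 1.70, 1.70 and 1.67 FPKM in Cxcl10-/- and 0.58, 0.57 and 0.58 FPKM in Cxcr3-/- mice, against 0.59, 1.02 and 0.86 FPKM in WT mice. The counts behind these values were 105 to 121 per library in Cxcl10-/-, 32 to 41 in Cxcr3-/- and 39 to 71 in WT mice, and the log2 difference of Cxcl10-/- from WT was 0.95 ± 0.72. Cyyr1, a small membrane protein of little known role, had 8.18, 2.19 and 1.39 FPKM in Cxcl10-/-, against 2.56, 4.69 and 3.15 FPKM in Cxcr3-/- and 1.67, 0.50 and 2.30 FPKM in WT mice. The high Cxcl10-/- value came from mouse 1 alone and the groups overlapped, at a log2 difference of 1.29 ± 0.70 from WT, or 0.17 without that mouse.

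Of the further receptors expressed in all genotypes, Adgrl4 was abundant in stem cells, at a mean of 180 FPKM in WT. Ecscr and Robo4 averaged 10.3 and 4.15 FPKM there. Adgrl4 (ELTD1), an adhesion G protein-coupled receptor, ran the other way from most, with 94.5 to 118 FPKM in Cxcl10-/-, against 159 to 176 in Cxcr3-/- and 152 to 198 in WT mice. It was lower in all Cxcl10-/- libraries than in any other, at a log2 difference of -0.79 ± 0.14 from WT. Robo4, a guidance receptor that stabilises vessels and is also known on stem cells, spanned 4.74 to 12.3 FPKM in Cxcl10-/-, 3.78 to 5.32 in Cxcr3-/- and 3.72 to 4.43 in WT mice. Ecscr, an endothelial cell surface regulator of chemotaxis and apoptosis signalling, spanned 7.69 to 26.2 FPKM in Cxcl10-/-, 9.77 to 23.4 in Cxcr3-/- and 6.99 to 13.9 in WT mice, with overlap.

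Secreted and matrix proteins included Rarres2, the gene with the highest fitted log2 difference, Cxcl10-/- minus WT, of the 31 that could be fitted. Rarres2, which encodes the chemoattractant chemerin, had 17.8, 76.6 and 52.5 FPKM in Cxcl10-/-, against 1.76, 0 and 0 FPKM in Cxcr3-/- and 0, 0.82 and 0 FPKM in WT mice. These levels rest on 184, 782 and 616 counts in Cxcl10-/-, against 16, 0 and 0 in Cxcr3-/- and 0, 10 and 0 in WT mice, and the log2 difference of Cxcl10-/- from WT was 7.25 ± 1.64. That value rests on the 10 counts in WT mouse 2, without which WT is at 0 and the fitted 12.00 is no bound. Sparc, a collagen-binding matricellular protein, had 57.0, 103 and 54.9 FPKM in Cxcl10-/-, against 1.38, 0.20 and 0.80 FPKM in Cxcr3-/- and 0.36, 1.36 and 2.96 FPKM in WT mice. Every Cxcl10-/- library lay at over 50 FPKM and every other one under 3 FPKM, with a log2 difference of 5.33 ± 0.71 from WT. Igfbp7, an insulin-like growth factor-binding protein of the vascular basement membrane, had 45.1, 69.0 and 20.3 FPKM in Cxcl10-/-, against 1.93, 0.11 and 2.52 FPKM in Cxcr3-/- and 1.06, 3.72 and 2.80 FPKM in WT mice. All Cxcl10-/- values were above all others, at a log2 difference of 4.05 ± 0.86 from WT. Tinagl1, a matrix protein related to tubulointerstitial nephritis antigen, had 22.7, 22.3 and 9.19 FPKM in Cxcl10-/-, against 7.18, 6.24 and 10.3 FPKM in Cxcr3-/- and 6.07, 4.61 and 9.97 FPKM in WT mice. Cxcl10-/- mouse 3 lay within the range of the other genotypes, so the groups overlapped, and the log2 difference from WT was 1.28 ± 0.46.

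The coagulation inhibitor Tfpi and the vascular growth regulator Egfl7, host gene of the microRNA miR-126, were abundant in stem cells of every genotype. Tfpi spanned 58.8 to 74.7 FPKM in Cxcl10-/-, 28.5 to 41.1 in Cxcr3-/- and 30.4 to 41.0 in WT mice, and only its Cxcl10-/- libraries were apart, at a log2 difference of 0.91 ± 0.22 from WT. Egfl7 spanned 74.6 to 124 FPKM in Cxcl10-/-, 44.8 to 66.6 in Cxcr3-/- and 37.5 to 61.1 in WT mice. Esm1, the tip-cell proteoglycan endocan, had 0, 2.70 and 1.08 FPKM in Cxcl10-/-, 0, 0 and 0.28 FPKM in Cxcr3-/- and 0 in all WT libraries. Its counts were 0, 80 and 36 in Cxcl10-/- mice 1 to 3, so mouse 1 did not differ from the WT mice. For folds, counts were summed over mice and scaled to library totals, with 3 counts as the limit for a group at 0. The Esm1 sum was at least 42.2-fold higher in Cxcl10-/- than in WT libraries, and at least 19.4-fold without Cxcl10-/- mouse 2. Such folds cover counting error and not the spread between mice.

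The genes of caveolae, diaphragms and channels did not move together. Plvap, which builds the diaphragms of endothelial fenestrae, had 2.97, 3.42 and 3.17 FPKM in Cxcl10-/-, against 0.63, 0.06 and 0.37 FPKM in Cxcr3-/- and 0, 0.03 and 0.25 FPKM in WT mice. Its Cxcl10-/- libraries were close to each other and above all others, at a log2 difference of 4.90 ± 1.5 from WT. Cav2, a caveolin, had 13.0, 3.39 and 5.29 FPKM in Cxcl10-/-, against 6.46, 10.5 and 6.20 FPKM in Cxcr3-/- and 15.3, 14.3 and 19.2 FPKM in WT mice. Both mutants lay under all WT libraries, and the log2 difference of Cxcl10-/- from WT was -1.25 ± 0.47, or -1.95 without Cxcl10-/- mouse 1, where it passed the threshold. Cav1, the main structural caveolin of endothelial cells, was absent or nearly so everywhere, with 0 to 2 counts in Cxcl10-/-, 0 to 4 in Cxcr3-/- and 0 to 1 in WT libraries. Cavin1, the coat protein of caveolae, spanned 8.18 to 12.4 FPKM in Cxcl10-/-, 16.8 to 19.6 in Cxcr3-/- and 8.83 to 14.2 in WT mice, highest in Cxcr3-/-. The water channel Aqp1, shared by endothelial and red blood cells, was erratic in Cxcl10-/- mice at 0.07 to 6.39 FPKM, against 3.93 to 9.36 in Cxcr3-/- and 1.66 to 2.40 in WT mice.

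Among intracellular signalling genes, Ushbp1, which encodes a binding protein of the scaffold harmonin, had 6.23, 9.47 and 1.19 FPKM in Cxcl10-/-, against 0.94, 0 and 0 FPKM in Cxcr3-/- and 0.06, 0.16 and 0.05 FPKM in WT mice. Cxcl10-/- mouse 3 was close to Cxcr3-/- mouse 1 but above it, and the log2 difference from WT was 5.76 ± 1.80. Rasip1, a Ras-interacting protein needed for vessel lumen formation, had 3.78, 3.43 and 2.58 FPKM in Cxcl10-/-, against 0.20, 0.31 and 0.39 FPKM in Cxcr3-/- and 0.07, 0.49 and 0.47 FPKM in WT mice. The Cxcl10-/- libraries lay above all others, and Cxcr3-/- and WT overlapped, at a log2 difference of 3.16 ± 0.96 from WT. Nos3, the endothelial nitric oxide synthase, gave 0, 12 and 2 counts in Cxcl10-/- mice and 0 in all 6 other libraries. Mouse 2 gave 12 of these 14 counts, and the 2 counts left without it are under the limit of 3, so no fold is given. Shank3, a scaffold protein, was lower in Cxcl10-/- mice at 2.25 to 4.64 FPKM, against 6.71 to 8.74 in Cxcr3-/- and 5.41 to 8.27 in WT mice, without overlap. For Gng11, at the levels given above, every Cxcl10-/- library was above and every Cxcr3-/- library under all WT libraries.

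Both transcription factors belong to the SOX F group, which directs endothelial and arterial identity. Sox18 had 50.1, 16.4 and 7.52 FPKM in Cxcl10-/-, against 8.87, 4.12 and 5.97 FPKM in Cxcr3-/- and 3.27, 4.69 and 4.31 FPKM in WT mice. Cxcl10-/- mouse 3 lay under Cxcr3-/- mouse 1 but above all WT mice, and the log2 difference from WT was 2.49 ± 0.62. Without Cxcl10-/- mouse 1 it was 1.46 and no longer called. Sox17 had 4.85, 0.57 and 3.32 FPKM in Cxcl10-/-, 0.08, 0 and 0.03 FPKM in Cxcr3-/- and 0 in all WT libraries. With 322 counts in all in Cxcl10-/- and 0 in WT libraries, its summed counts were at least 117-fold higher in Cxcl10-/-, and at least 68.7-fold without Cxcl10-/- mouse 1. These folds too cover counting error only.

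**Figure D2:**
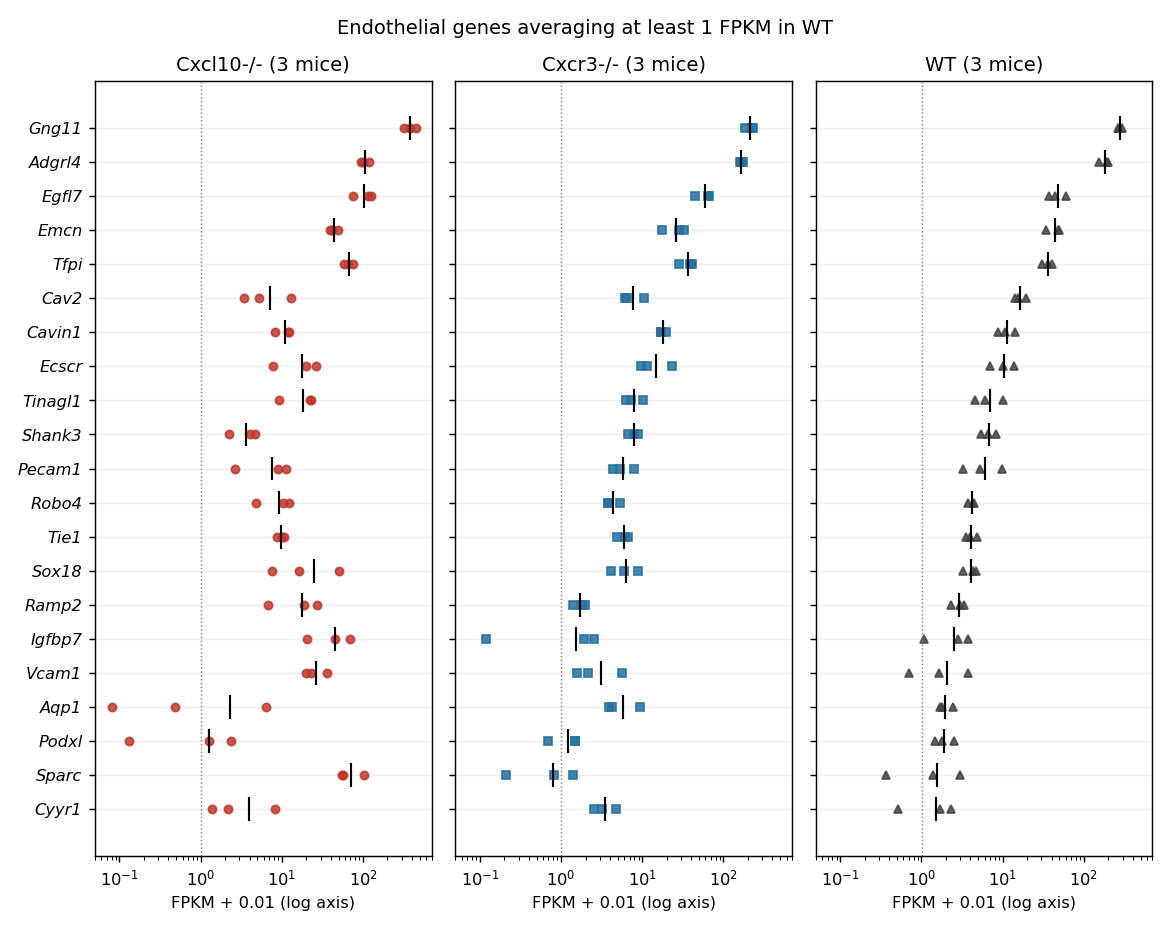
Levels of the 21 endothelial genes averaging at least 1 FPKM in WT, Sparc included, on a log axis of FPKM + 0.01, with Cxcl10-/- on the left, Cxcr3-/- in the middle and WT on the right. Each point is 1 mouse, each black bar the mean of 3 mice, and the dotted line marks 1 FPKM. Gng11 and Adgrl4 lie above the rest in WT, and Sparc, Igfbp7, Vcam1 and Ramp2 are far to the right in Cxcl10-/- only, with Sparc at 54.9 to 103 FPKM there.

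Taking the contrast of Cxcl10-/- with WT cells as a whole, 23 of the 38 genes were higher and 3 (Adgrl4, Cav2 and Shank3) lower in every Cxcl10-/- library than in any WT library, while 12 overlapped. Over the whole table, 9.39% of genes lay higher and 8.28% lower in this way, and over the genes that passed the filter for testing it was 18.3% and 11.9%. In the near-0 class it was 13 of 17, against 1.88% of all 11684 genes averaging under 1 FPKM in WT. Because the genes were listed with this contrast known, nothing is read from these shares.

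The fit covered the 10866 genes that averaged at least 1 FPKM over the 9 libraries, and 31 of the 38 genes passed that filter. Flt1, Sox17, Cav1, Esm1, Mcam, Ptprb and Nos3 did not. Another 8, all near 0 in WT, passed only through their level in Cxcl10-/- cells: Cdh5, Flt4, Plvap, Ushbp1, Mmrn2, Rarres2, Clec14a and Rasip1. By edgeR's quasi-likelihood test at a Benjamini-Hochberg adjusted p under 0.05, 11 of the 31 were called, against 7.22% of all tested genes. Higher in Cxcl10-/- cells were Cldn5, Flt4, Igfbp7, Mmrn2, Rarres2, Sox18, Sparc, Tfpi, Tie1 and Vcam1, against 3.52% of tested genes called higher, and Adgrl4 was lower, against 3.7% called lower. Over all tested genes 383 were called higher and 402 lower, a split that became 566 and 324 with scaling by library totals alone and 663 and 345 with limma on log2(FPKM + 1). The median log2 difference of all tested genes was 0.06, and 0.15 with library totals alone. With limma on log2(FPKM + 1) 17 endothelial genes were called, against 9.28% of all tested genes, and with DESeq2 17, against 13.8%. Flt4, Mmrn2 and Rarres2 are among the 8 genes that passed the filter only through Cxcl10-/- cells, so nothing is read from the count of 11. Leaving out WT mouse 1, 2 or 3 left 4, 5 and 3 endothelial genes called, and leaving out Cxcr3-/- mouse 3, which enters through the shared spread, left 7. Over the 9 fits with 1 library left out, Cldn5, Sparc and Vcam1 were called in all 9, Adgrl4 in 8, Rarres2 in 7, Igfbp7 in 6, Tfpi in 5, Sox18 in 4, Mmrn2 in 2, and Flt4 and Tie1 in 1 each.

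**Figure D3:**
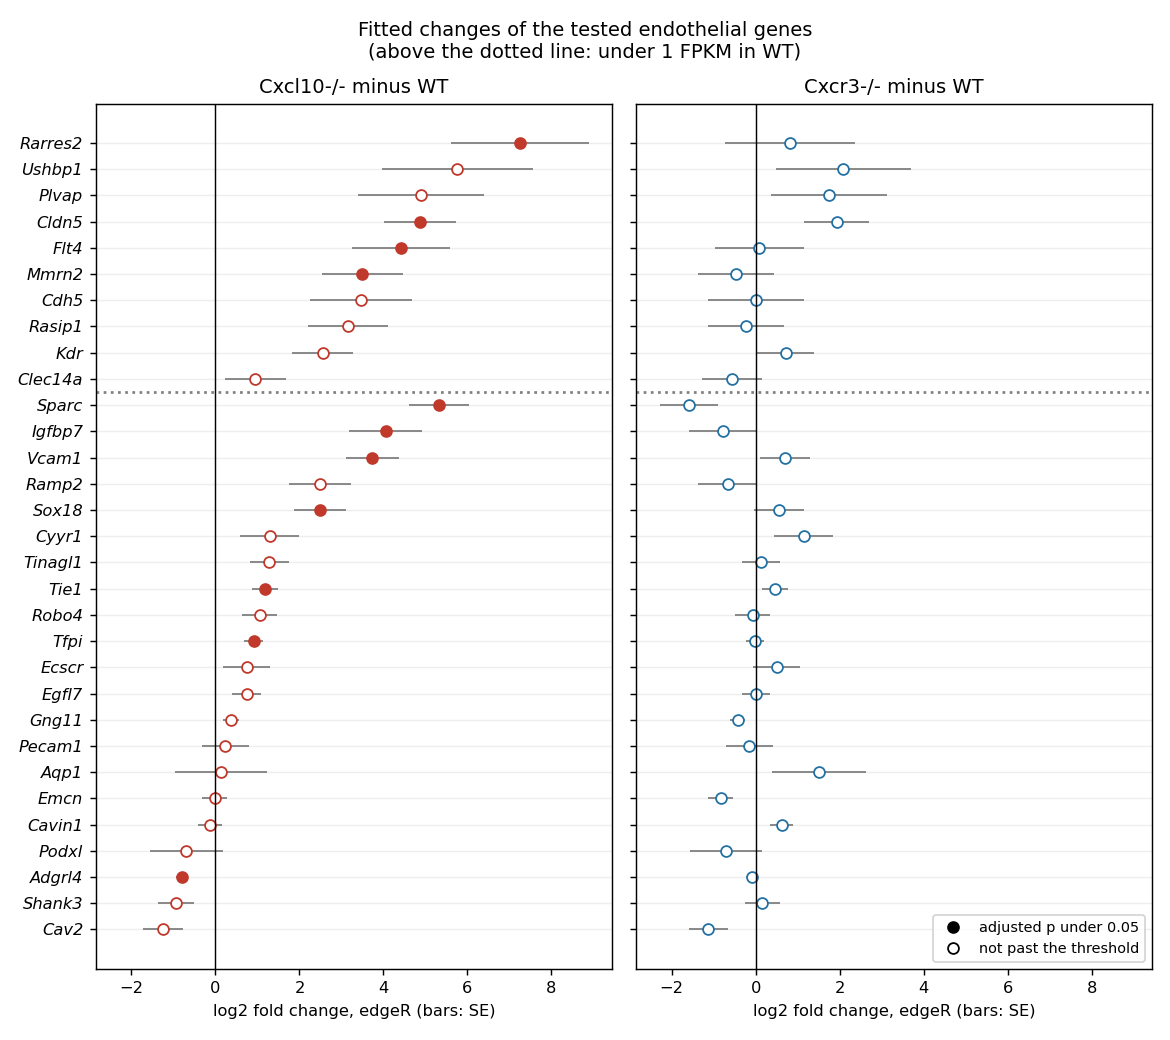
Fitted log2 fold changes of the 31 tested endothelial genes, Cxcl10-/- minus WT on the left and Cxcr3-/- minus WT on the right, with bars of 1 SE from edgeR. Filled points passed an adjusted p of 0.05 over all tested genes, on the left as a description only, and genes above the dotted line averaged under 1 FPKM in WT. On the left the points reach 7.25 (Rarres2) and 11 are filled, and on the right they lie between -1.59 (Sparc) and 2.09 (Ushbp1) with none filled.

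In stem cells of Cxcr3-/- mice, where the deleted gene is that of the receptor rather than the ligand, no endothelial gene passed the test against WT. Cxcr3 RNA was also at 0 counts in WT mice 1 and 2, so its loss from these cells could not be seen. This contrast did not serve in listing the genes, although its WT libraries set the classes. Over all genes edgeR called 0 of 10866 (0% called), limma 0 and DESeq2 68 (0.626%), and edgeR gave 681 genes (6.27%) an unadjusted p under 0.05. Of the 31 endothelial genes 6 had an unadjusted p under 0.05 by edgeR, and their smallest adjusted p was 0.713; limma and DESeq2 also called 0 of them. Cldn5 (1.93 ± 0.77) and Cavin1 (0.62 ± 0.28) had positive log2 differences among these 6. Sparc (-1.59 ± 0.70), Cav2 (-1.13 ± 0.47), Emcn (-0.83 ± 0.30) and Gng11 (-0.43 ± 0.18) had negative ones.

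The direction of the other genes was mixed. The median log2 difference, Cxcr3-/- minus WT, was 0.40 over the 10 tested genes near 0, -0.01 over the 20 expressed in all genotypes and 0.02 over all tested genes. Of the 31, 17 had a positive and 14 a negative difference. Every Cxcr3-/- library exceeded every WT library for Cavin1, Cyyr1 and Aqp1, 3 of 38 genes, against 8.57% of the table and 12.1% of tested genes. Every one was lower for Ramp2, Emcn, Gng11, Clec14a and Cav2, 5 of 38 genes, against 4.11% of the table and 7.63% of tested genes. The precision for genes near 0 was low. An interval of 2 SE on each side ran from -2.27 to 2.28 for Cdh5, from -2.03 to 2.22 for Flt4, from -2.27 to 3.92 for Rarres2 and from -1.13 to 5.31 for Ushbp1. For the abundant genes it was narrow, from -0.39 to 0.19 for Adgrl4 and from -0.46 to 0.42 for Tfpi.

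Within the Cxcr3-/- group, mouse 2 carried least of the near-0 genes. It had 0 counts for 7 of the 17 and 1.86 FPKM in sum, against 11.3 and 10.3 FPKM in mice 1 and 3, where Cldn5 and Kdr alone gave 2.25 to 2.92 FPKM each. Cldn5 and Kdr in Cxcr3-/- mouse 2, at 0.40 and 0.24 FPKM, lay within or under the WT range.

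The contrast of the 2 mutants shares its Cxcl10-/- libraries with the one against WT, so its values and calls are a description and nothing is read from their number. In Cxcr3-/- against Cxcl10-/- cells, edgeR called 12 of the 31 genes, against 10.5% of all tested genes. Adgrl4 was higher in Cxcr3-/- (0.69 ± 0.14 on the log2 scale; 5.1% of tested genes were called higher). Lower in Cxcr3-/- were 11 genes, where 5.41% of tested genes were called lower: Flt4, Ramp2, Cldn5, Tfpi, Gng11, Igfbp7, Mmrn2, Sparc, Rarres2, Vcam1 and Rasip1. Flt4, Mmrn2, Rarres2 and Rasip1 had passed the filter only through Cxcl10-/- cells. For Sparc the log2 difference, Cxcr3-/- minus Cxcl10-/-, was -6.92 ± 0.79, for Rarres2 -6.43 ± 1.57 (resting on the 16 counts in Cxcr3-/- mouse 1), for Igfbp7 -4.84 ± 0.90 and for Gng11 -0.80 ± 0.18. Without Cxcr3-/- mouse 1, 2 or 3, the number called was 6, 7 and 5, and Adgrl4, Igfbp7 and Sparc were called in all 3 of these fits.

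The Cxcl10-/- mice did not rank alike for all endothelial genes. Mouse 1 had the highest level of Sox18, Sox17, Cdh5, Ramp2, Cyyr1 and Cav2, with Sox18 at 50.1 FPKM, against 16.4 and 7.52 FPKM in mice 2 and 3. The same mouse had the lowest level of Pecam1 (2.65 FPKM), Robo4 (4.74 FPKM), Ecscr (7.69 FPKM), Flt4 (0.59 FPKM) and Kdr (4.32 FPKM), all of which were highest in mouse 3. Mouse 2 led for Rarres2, Sparc, Igfbp7, Ushbp1, Vcam1 and Mmrn2. Some genes hardly differed within the group: Clec14a spanned 1.67 to 1.70 FPKM, Plvap 2.97 to 3.42 FPKM and Cldn5 13.4 to 16.8 FPKM. Replicate numbers carry no order, and which gene pairs share a ranking over 3 mice is a description only.

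**Figure D4:**
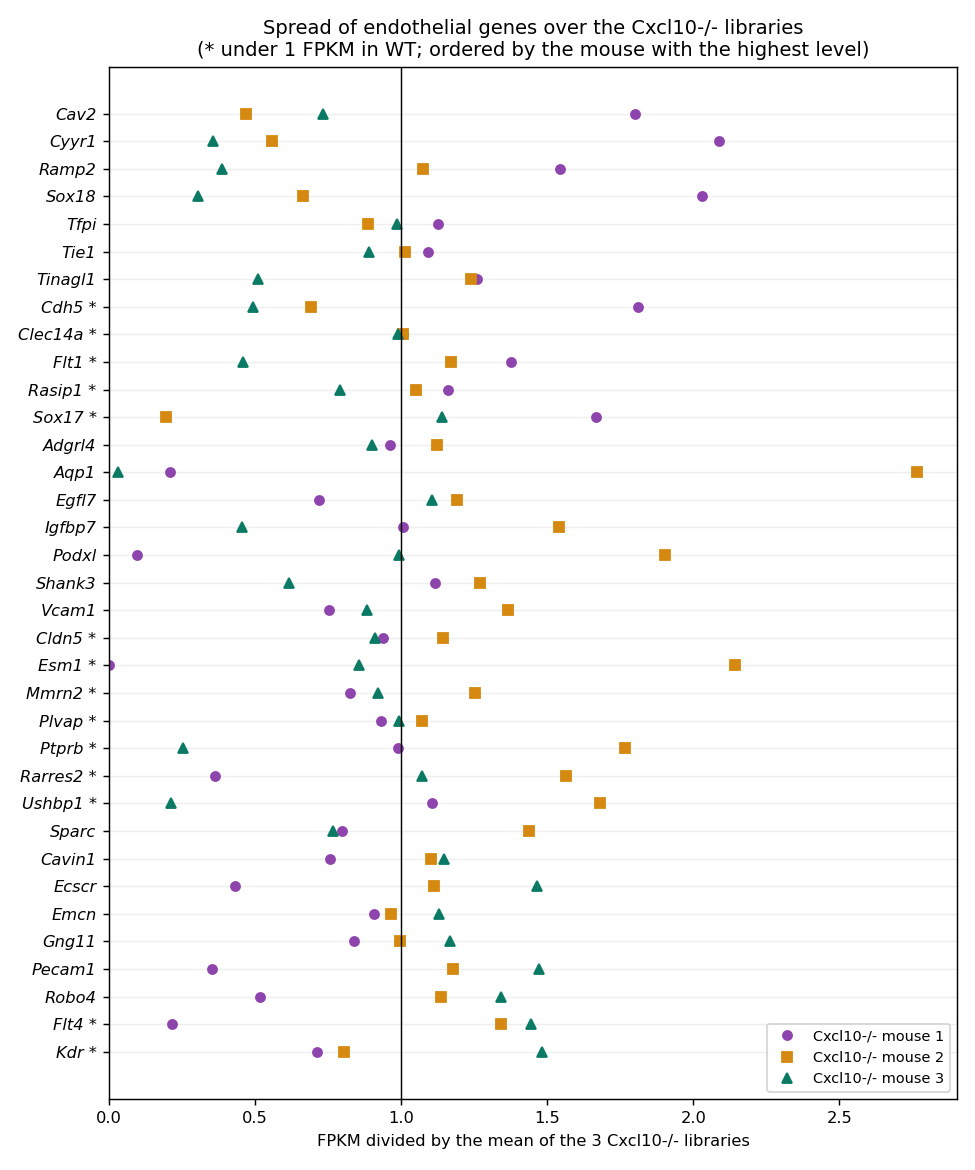
FPKM of each endothelial gene in Cxcl10-/- mouse 1 (circles), 2 (squares) and 3 (triangles), divided by the mean of the 3, for genes averaging at least 1 FPKM in Cxcl10-/- cells. Asterisks mark genes near 0 in WT. The upper block, led by mouse 1, includes Sox18 and Cdh5, and the lower block, led by mouse 3, includes Pecam1, Robo4, Flt4 and Kdr, while Clec14a, Plvap and Cldn5 lie close to the line at 1.

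Other marker genes are given here as whole lists, and not all of them moved with the endothelial genes. Over all tested genes, 3.52% were called higher and 3.7% lower in Cxcl10-/- against WT. Some listed genes passed the filter only through Cxcl10-/- cells, so nothing is read from the numbers called. They were 4 of 15 tested sinusoidal and capillary genes, 5 of 27 other endothelial genes and 4 of 6 stromal and bone genes. With them were 2 of 2 pericyte genes and 3 of 14 immediate-early genes. Sinusoidal and capillary endothelial genes summed to 584 to 859 FPKM in Cxcl10-/-, 141 to 151 in Cxcr3-/- and 130 to 156 in WT libraries. Fabp4 alone gave 287 to 455 FPKM in Cxcl10-/-, 3.59 to 28.7 in Cxcr3-/- and 5.67 to 18.2 in WT libraries. Fabp5 and Rgcc, which were not called, gave 47.4 to 67.9 and 41.5 to 67.4 FPKM of the WT sums. Of 18 listed, 15 were tested and 7 were called higher in Cxcl10-/- cells relative to WT. Among these were Fabp4, a capillary fatty acid-binding protein (5.10 ± 0.70 on the log2 scale), and the fatty acid receptor Cd36 (4.15 ± 0.84). The sinusoidal scavenger receptors Stab1 (6.37 ± 0.97) and Stab2 (5.23 ± 0.88) were also called higher. Without overlap, 10 of the 15 were higher and 1 lower in Cxcl10-/- than in WT libraries, against 18.3% and 11.9% of tested genes. The only listed gene called lower was the lectin Clec4g, named after its values were seen, with 0 counts in Cxcl10-/- libraries, against 0.05 to 4.24 FPKM in Cxcr3-/- and 3.42 to 7.66 FPKM in WT. Lyve1, a marker of sinusoidal and lymphatic endothelium, was at 0 in all Cxcl10-/- libraries. It was also near 0 elsewhere, at most 0.23 FPKM in Cxcr3-/- and 0.02 FPKM in WT libraries.

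Another list held 52 general endothelial genes that are not among the 38. Their summed level was 472 to 577 FPKM in Cxcl10-/-, 464 to 505 in Cxcr3-/- and 416 to 501 in WT libraries. Of 27 tested, edgeR called Icam2 higher (1.00 ± 0.27) and Mmrn1 lower, by 1.26 ± 0.20 on the log2 scale, in Cxcl10-/- cells relative to WT. Of the 27, limma called 6, against 9.28% of all tested genes, and DESeq2 7, against 13.8%. Without overlap, 9 of the 27 were higher and 3 lower in Cxcl10-/- than in WT libraries, against 18.3% and 11.9% of tested genes. Aplnr, the apelin receptor, did not pass the test with 2.72, 2.16 and 4.20 FPKM in Cxcl10-/-, against 0.06, 0 and 0.09 FPKM in Cxcr3-/- and 0, 0 and 0.02 FPKM in WT mice. Calcrl, the calcitonin receptor-like receptor that Ramp2 partners, did not pass either, at a log2 difference of -0.66 ± 0.20. It had 13.2, 19.7 and 18.4 FPKM in Cxcl10-/-, lower than 25.7, 22.8 and 26.9 FPKM in WT mice. Of the 28 that were near 0 in WT, 6 were higher in every Cxcl10-/- than in every WT library, against 1.88% of all genes averaging under 1 FPKM in WT. In all Cxcl10-/- libraries 8 of the 52 were at 0, among them the gap junction gene Gja4 and the Notch target Hey1. Gja4 and Hey1 were also at 0 in all WT libraries and at most 0.2 FPKM in Cxcr3-/- libraries.

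Markers of other cells near the stem cell were mixed as well. The 17 stromal and bone genes summed to 67.7, 326 and 51.8 FPKM in Cxcl10-/- mice, against 22.7 to 38 in Cxcr3-/- and 25.2 to 33.3 in WT. Of 6 tested, Ibsp, Cxcl12 and Adipoq were called higher, and these had passed the filter only through Cxcl10-/- cells. Adipoq had 1.37, 21.8 and 0.05 FPKM in Cxcl10-/-, against 0.12, 0.15 and 0 FPKM in Cxcr3-/- and 0 in all WT mice. Without Cxcl10-/- mouse 2, Cxcl12 and Adipoq were no longer called. Cxcl12, the chemokine of the marrow niche, had 14.1, 119 and 10.8 FPKM in Cxcl10-/-, against 0.24 at most in Cxcr3-/- and 1.24 at most in WT mice. Of the defining bone and fibroblast genes, Bglap was at 0 in all 9 libraries and Col1a1 at 0.10 FPKM or less. Sp7 was at 0 in Cxcl10-/-, at most 0.14 FPKM in Cxcr3-/- and at most 0.02 FPKM in WT libraries. Others of the list, named after their values were seen, were present in single Cxcl10-/- mice: Col1a2 at 4.90 FPKM, Dcn at 4.83 FPKM and Alpl at 1.57 FPKM in mouse 2, and Pdgfra at 2.49 FPKM and Lum at 1.57 FPKM in mouse 3. Of the 17 genes, 6, 10 and 6 reached 1 FPKM in Cxcl10-/- mice, against 2 or 3 in each Cxcr3-/- and WT library. The 10 pericyte and smooth muscle genes summed to 12.3 to 19.2 FPKM in Cxcl10-/-, 0.15 to 3.15 in Cxcr3-/- and 0.86 to 1.68 in WT. Acta2, Myh11 and Rgs5 were at 0 in all Cxcl10-/- libraries, at most 0.22 FPKM in Cxcr3-/- and at most 0.03 FPKM in WT. Kcnj8, a pericyte potassium channel gene, was the 1 gene of 2 tested that was called higher (5.07 ± 1.16). The 2 tested genes had passed the filter only through Cxcl10-/- cells.

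Blood cell markers and stress genes complete the lists. The 15 macrophage and monocyte genes, Vcam1 among them, summed to 436 to 491 FPKM in Cxcl10-/-, 228 to 413 in Cxcr3-/- and 566 to 700 in WT. Vcam1 was the 1 of 8 tested that was called higher in Cxcl10-/- cells relative to WT. Adgre1, the defining F4/80 gene, was at 0 in all Cxcl10-/- libraries, at most 0.07 FPKM in Cxcr3-/- and at most 0.32 FPKM in WT libraries. C1qb, a complement gene of macrophages, had 16.6, 7.35 and 5.68 FPKM in Cxcl10-/-, against 1.22, 3.42 and 0.61 FPKM in Cxcr3-/- and 1.86, 0.60 and 4.16 FPKM in WT mice, and did not pass the test. Lyz2 gave most of the sums; the other 14 genes, Vcam1 included, summed to 49.9 to 65.5 FPKM in Cxcl10-/-, 18.5 to 22.6 in Cxcr3-/- and 17.8 to 38.4 in WT. Of the 11 megakaryocyte and platelet genes 9 were tested. For Cxcl10-/- against WT, edgeR, limma and DESeq2 each called 0 of them, against 7.22%, 9.28% and 13.8% of all tested genes. By edgeR 2 had an unadjusted p under 0.05. No share of all tested genes is given for that level, so nothing is read from the 2. Their sums were 284 to 453 FPKM in Cxcl10-/-, 470 to 584 in Cxcr3-/- and 292 to 401 in WT. The 10 erythroid genes summed to 90.1 to 659 FPKM in Cxcl10-/-, 62.0 to 76.7 in Cxcr3-/- and 51.3 to 99.4 in WT. Hba-a1 was the 1 of 7 tested that was called higher in Cxcl10-/- cells, and it lost that call without Cxcl10-/- mouse 2. The median log2 difference of the 7, Cxcl10-/- minus WT, was 2.59. Lymphoid and neutrophil genes numbered 13 and summed to 188 to 405 FPKM in Cxcl10-/-, 210 to 409 in Cxcr3-/- and 350 to 409 in WT. Of 3 tested, only Nkg7 was called, lower by 0.98 ± 0.23 on the log2 scale in Cxcl10-/- cells. The 17 immediate-early and stress genes, which respond quickly to stimulation and handling of cells, summed to 415 to 807 FPKM in Cxcl10-/-, 76.5 to 99.8 in Cxcr3-/- and 84.6 to 99.8 in WT. In Cxcl10-/- cells 13 of 14 tested were called higher than in WT. Among them were Fos (6.84 ± 0.86 on the log2 scale), Egr1 (4.36 ± 0.59), Ier2 (2.61 ± 0.30) and Dusp1 (1.95 ± 0.36). Of the 14 tested, 3 had passed the filter only through Cxcl10-/- cells. Of the 31 genes of these lists, LT-HSC identity included and the 38 left out, that were called in Cxcl10-/- against WT, 11, 10 and 14 were called without WT mouse 1, 2 or 3. Those called in all 9 fits with 1 library left out were Egr1, Fabp4, Fos, Ibsp, Ier2, Jun, Mmrn1, Stab1 and Stab2. The part of these genes in the endothelial values was not tested.

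**Figure D5:**
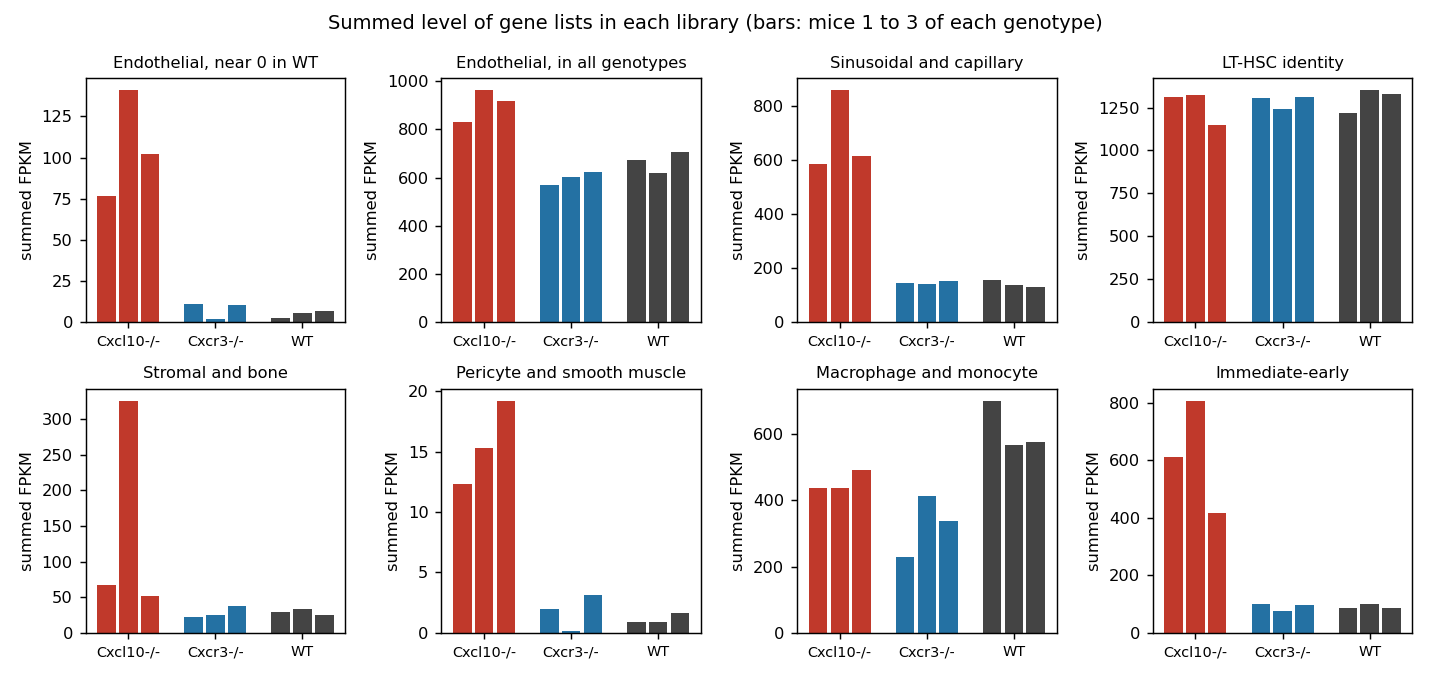
Summed FPKM of 8 gene lists in each library, with bars for mice 1 to 3 of Cxcl10-/- (left), Cxcr3-/- (middle) and WT (right) and all axes starting at 0. Near-0 endothelial genes, sinusoidal and capillary genes and immediate-early genes are high in all 3 Cxcl10-/- libraries, stromal and bone genes reach 326 FPKM in Cxcl10-/- mouse 2, and LT-HSC identity genes lie between 1150 and 1352 FPKM throughout.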

How the data were processed

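Polyadenylated RNA of 9 sorted LT-HSC libraries, 1 per mouse, was analysed from 1 deposited table. Per the file headers, the authors gave FPKM and, for the same genes, counts. The deposited counts are taken to be estimated counts made by the authors, because 87.1% of the deposited values are whole numbers and the rest fractions. Fastp, HISAT2, StringTie and RSEM appear in the submitters' processing notes. For their versions, the genome build and the annotation, the entry is: not given in the sources used here. No column was left unmapped.

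The estimated counts were rounded and fitted with edgeR 4.0.16 (quasi-likelihood F test, TMM factors, 1 mean per genotype, all 9 libraries) in R 4.3.3, for genes averaging at least 1 FPKM, with Benjamini-Hochberg adjustment over all 10866 tested genes in each of 3 comparisons. The SE is the fitted log2 difference divided by the root of F. Alternatives were limma 3.58.1 on log2(FPKM + 1) or log2(FPKM + 0.1), DESeq2 1.42.0, RLE factors, library totals, other filters, mitochondrial genes left out, a replicate block and leaving out each library. Without molecular identifiers in the reads, limits from 3 counts cover counting error only. The p-values set a difference of genotype means against the spread between libraries, fitted over all 3 genotypes. With 1 library per mouse, that spread holds mouse and library preparation together.

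The endothelial genes and all other lists were chosen with earlier results of these data known. Values in every library are given for any endothelial gene called in Cxcr3-/- against WT, the 8 with the largest log2 difference of Cxcl10-/- from WT in each class, and 2 on each side of the split; of every other list, up to 4 genes with the smallest p in Cxcl10-/- against WT and defining markers at 0 are named. Promoters are RefSeq entries on GRCm38.p6, matched by symbol and not by coordinates of the deposited table.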

Additional observations from a re-analysis of the deposited data

How the results depend on the processing

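No endothelial gene changed sign where it was called; 89 of the alternative fits of single called genes lost the call. In Cxcl10-/- against WT, all genes called numbered 785, but 1498 with DESeq2 and 1183 without a filter, and 193 to 1003 with 1 library left out (229, 193 and 253 without WT mouse 1, 2 or 3). Endothelial genes called numbered 11, but 17 with limma on log2(FPKM + 1), with DESeq2 and without a filter, and 3 to 12 with 1 library left out. With the mitochondrial genes left out of the fit, 707 genes and 10 endothelial genes were called. In Cxcr3-/- against WT, all genes called numbered 0, but 68 with DESeq2 and 38 without a filter, and 0 to 6 with 1 library left out (6 without Cxcr3-/- mouse 2), while endothelial genes called were 0 in every fit run. In Cxcr3-/- against Cxcl10-/-, 1142 genes became 1814 with DESeq2 and 423 to 1407 with 1 library left out (423 and 517 without Cxcr3-/- mouse 1 or 3), and the 12 endothelial genes became 5 to 13. A replicate block gave 442 genes and 6 endothelial genes in Cxcl10-/- against WT, 0 and 0 in Cxcr3-/- against WT, and 833 and 6 in Cxcr3-/- against Cxcl10-/-. The sources do not say whether the label numbers pair the mice. Deviations of same-numbered mice correlated at -0.0857 to 0.0309, and those of differently numbered mice at -0.0493 to 0.0962. Such correlations cannot show whether same-numbered mice were prepared together, so the numbers called describe the block only. The near-0 class held 17 genes, 14 with a border of 0.5 FPKM and 21 with 2 FPKM. The causes of these shifts were not tested. Many values of near-0 genes outside Cxcl10-/- cells rest on few counts.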
